A study of Caenorhabditis elegans with 24 samples.

Results

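The genes described here are the P-type cation ATPase group of *C. elegans* that holds *catp-3*: the 8 genes *catp-1* to *catp-8*, *eat-6* and the beta subunit *nkb-1*. They were listed by name, and they make up 10 of the 46508 genes in the table. The group was selected on the rise of *catp-3* in *set-9* worms against N2, so the values of *catp-3* in every comparison that holds N2 or *set-9* libraries are given as a description, without a test. RNA was sequenced from synchronized L4 worms of 4 genotypes, with 2 libraries each, to learn how SET-9 and SET-26, a pair of closely related SET and PHD domain proteins, affect gene expression. The *set-9* worms carried *set-9(rw5)*, a CRISPR-made frame shift with a premature stop, the *set-26* worms carried the deletion *set-26(tm2467)*, the *set-9 set-26* worms carried both, and N2 was the wild-type strain without either. The double mutant stock was kept over the balancer nT1. The study sequenced double mutants of a generation with mild and of a later generation with severe fertility defects, and the labels do not say which these are. Each line rests on a single allele of each gene. Nothing in the labels says that the libraries of a genotype came from separate cultures, so p-values measure the spread between these libraries only.

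P-type ATPases are membrane pumps that carry ions or other small molecules across a membrane by taking a phosphate from ATP onto an aspartate of their own chain and releasing it again. The best known of them, the Na+/K+-ATPase, has a catalytic alpha subunit and a beta subunit that is needed for its folding and transport to the cell surface, and it keeps the sodium and potassium gradients on which nerve and muscle depend. In *C. elegans* *eat-6* encodes the main alpha subunit, named for the weak feeding of its mutants, and *nkb-1* encodes a beta subunit. The proteins of *catp-1*, *catp-2*, *catp-3* and *catp-4* are related to Na+/K+- and H+/K+-ATPase alpha subunits, while *catp-5*, *catp-6*, *catp-7* and *catp-8* belong to the P5 branch, whose members in other animals work in internal membranes or move polyamines.

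The phosphorylated aspartate lies in a run of aspartate, lysine, threonine and glycine that marks the family. The coding sequence of this site is shown for members that hold this exact run. The aim is to make clear how much of it they share in DNA, since sequencing reads can be assigned only where the DNA differs. The sequences were read from the WBcel235 genome on the coding strand, and the capitals mark the codons of aspartate, lysine, threonine and glycine.
*catp-3*: attgcttcaGATAAGACCGGAactttgacc
*catp-2*: attgcttctGATAAAACTGGAacccttacg
*catp-4*: atttgttcgGATAAAACGGGAacactcacc
*catp-5*: gcttgcttcGATAAAACAGGAacacttact
*catp-6*: gtttgcttcGATAAAACGGGTacactcact
*catp-7*: gtatgtttcGACAAAACGGGTacactaact
*catp-8*: tgttgttttGACAAAACAGGAacattgaca
The window of *catp-3* lies at chrV:8077551-8077580 on the plus strand, within 1 coding exon, and its aspartate is residue 380. Each gene shown held the motif once, and in each the next residue was a threonine. In the alignment of *catp-1* with *catp-3*, the run of *catp-1* had a serine in place of the threonine, with the aspartate at its position 409 kept. CATP-1 is known to influence developmental timing without its predicted pump activity. The beta subunit *nkb-1*, which has no catalytic site, held no such run.

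The gene *catp-3* (WBGene00015660) lies at chrV:8076012-8079916 on the plus strand of WBcel235, has 8 coding exons and encodes 1054 amino acids. No other annotated gene overlapped it. Its closest relative among the members was *catp-2*, with 79.3% identical residues over the alignment of the proteins. Next came *catp-1* at 44.1% and *eat-6* at 40.0%. Even between *catp-2* and *catp-3* no stretch of 50 bases was shared, and the longest exact run in common was 20 bases. Among the other members, *catp-6* overlapped the collagen gene *col-123* in exons, *catp-8* overlapped *wht-2* and C10C6.11, *nkb-1* overlapped a piRNA gene and *catp-2* overlapped C02E7.16, so reads in these stretches could belong to either gene.

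Library totals ran from 16363189 to 26187811 reads on genes, estimated by the authors and deposited without scaling. All levels below are CPM, reads scaled to library size, after scaling by the TMM method, or CPM per kilobase of exon (RPKM) where genes are compared with each other. A gene was tested by the quasi-likelihood test of edgeR if it had at least 20 reads in at least 1 library, and called at a 5% false discovery rate over the 14667 genes tested. By this rule 9 of the 10 members were tested. Pearson's r of log2 CPM between the 2 libraries of a genotype was 0.983 to 0.989 across genes, which are not independent replicates. Each library ran in its own lane of the flow cell, so lane and library cannot be told apart. The *set-9* gene itself had 46.0 and 39.9 CPM in *set-9* libraries, 115 and 107 CPM in *set-26* libraries and 30.6 and 33.0 CPM in double mutant libraries, against 90.4 and 91.4 CPM in N2 libraries, which goes with the labels. Its near-identical paralog could share reads with it.

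Per kilobase of exon, *eat-6* was by far the most abundant member, with a median of 269 RPKM over the 8 libraries (157 to 302). It was followed by *nkb-1* at 79.0 RPKM (60.5 to 87.4), and the ranges of the other members stayed below both. The P5 genes *catp-7*, at 24.3 RPKM (21.2 to 28.0), and *catp-8*, at 23.7 RPKM (20.01 to 28.3), overlapped each other. The genes *catp-3*, at 17.8 RPKM (4.17 to 33.9), and *catp-6*, at 16.4 RPKM (12.4 to 16.9), also overlapped, and the range of *catp-3* took in those of *catp-6*, *catp-7*, *catp-8*, and *catp-5*, which had 7.13 RPKM (5.06 to 8.94). The lowest of those tested were *catp-1*, at 4.27 RPKM (3.85 to 4.65), and *catp-4*, at 2.23 RPKM (0.336 to 5.10), which overlapped as well. The spread over libraries was 15.2-fold for *catp-4* and 8.13-fold for *catp-3*, and 1.21-fold for *catp-1*. With at most 4 reads in any library and none in 4 of them, *catp-2* was not detectable as different between genotypes at this depth.

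**Figure D1:**
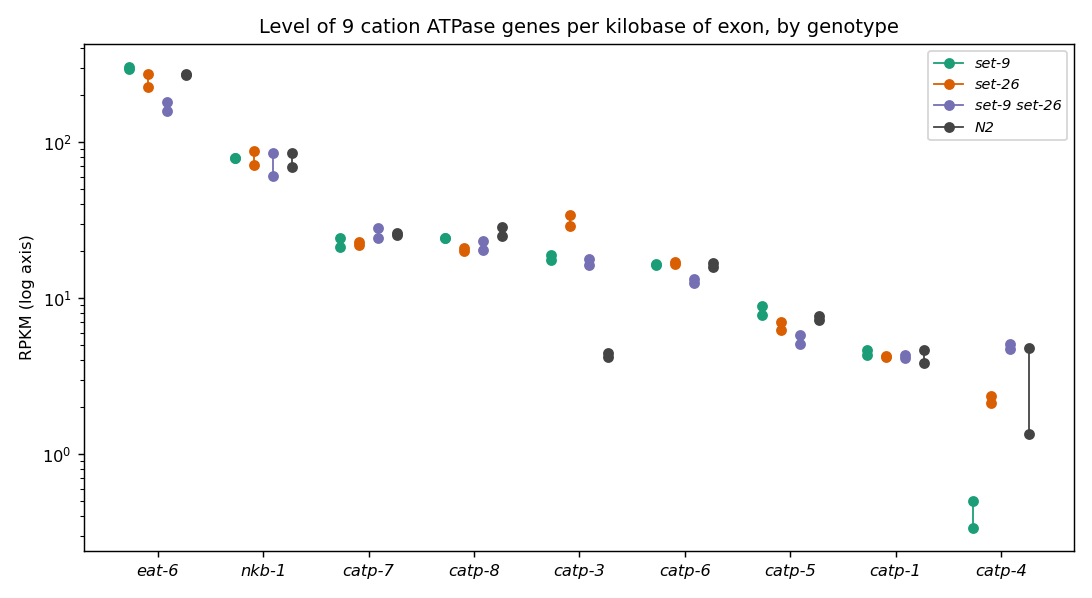
RPKM on a log axis of the 9 members that were tested, in order of their median, with *set-9*, *set-26*, the double mutant and N2 from left to right within each gene and a line joining the 2 libraries of a genotype. The N2 libraries of *catp-3* (4.17 RPKM at the lowest) and the *set-9* libraries of *catp-4* (0.336 RPKM at the lowest) sit far below the other genotypes of the same gene, while *catp-1* spans 3.85 to 4.65 RPKM.

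The level of *catp-3* was higher in all 3 mutants than in N2. It had 65.4 and 60.7 CPM in *set-9* libraries, 100.02 and 117 CPM in *set-26* libraries and 61.6 and 56.3 CPM in double mutant libraries, against 15.2 and 14.4 CPM in N2 libraries. All 6 mutant libraries lay above both N2 libraries, and the *set-26* libraries lay above all others. The libraries held 1177 and 932 reads of *catp-3* in *set-9* worms, 1999 and 2156 in *set-26* worms and 1163 and 1105 in the double mutant, against 387 and 253 in N2, so the gene was far from the limit of counting in every library. These values amounted to 4.26 times N2 in *set-9* (log2 fold change 2.09, standard error 0.13), 7.31 times in *set-26* (2.87, standard error 0.13) and 3.98 times in the double mutant (1.99, standard error 0.13). With any 1 library left out, the log2 fold changes ranged over 2.04 to 2.14 in *set-9*, 2.77 to 2.98 in *set-26* and 1.93 to 2.06 in the double mutant. These libraries include those by which *catp-3* was picked, so the ranges and standard errors are a description and do not test its rise.

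Although either mutation alone went with a higher level of *catp-3*, the mutations together did not add up. The log2 fold change of the double mutant minus both single mutant log2 fold changes (the interaction) was −2.97 with a standard error of 0.17, which is a description. The double mutant, at 59.0 ± 3.76 CPM (SD, n = 2), overlapped the *set-9* worms, at 63.0 ± 3.30 CPM. The comparison of the double mutant with *set-26* worms sets no N2 or *set-9* library against another and was tested. Its spread, however, was estimated from all 8 libraries, those by which *catp-3* was picked among them. The level fell by 0.88 on the log2 scale (standard error 0.12) to 59.0 ± 3.76 CPM in the double mutant, against 108 ± 11.7 CPM in *set-26* worms (SD, n = 2 each), and the adjusted p was 0.0082. Over 16 alternative settings this p ranged from 3.3e-06 to 0.073, and it stood at 0.059 without *set-26* replicate 2, at 0.05002 without double mutant replicate 1 and at 0.073 without double mutant replicate 2.

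Against N2, genes of the L4 molt moved the other way. Their summed level over 10 markers was 5475 and 7307 CPM in *set-9* libraries, 5302 and 5949 CPM in *set-26* libraries and 8571 and 8560 CPM in the double mutant, against 11580 and 15778 CPM in N2, and none was at 0. Of the 10 genes, 2, 5 and 4 were called lower in *set-9*, *set-26* and the double mutant than in N2, beside 0.464%, 2.41% and 10.3% of all genes called in either direction. In the double mutant against *set-9*, 6 of the 10 were called higher and 1 lower, beside 25.9% of all genes. There *catp-3* differed by −0.10 on the log2 scale as a description. Against *set-26*, 5 were called higher and 1 lower, beside 10.4%. The part of the molt genes in the values of *catp-3* was not tested.

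**Figure D2:**
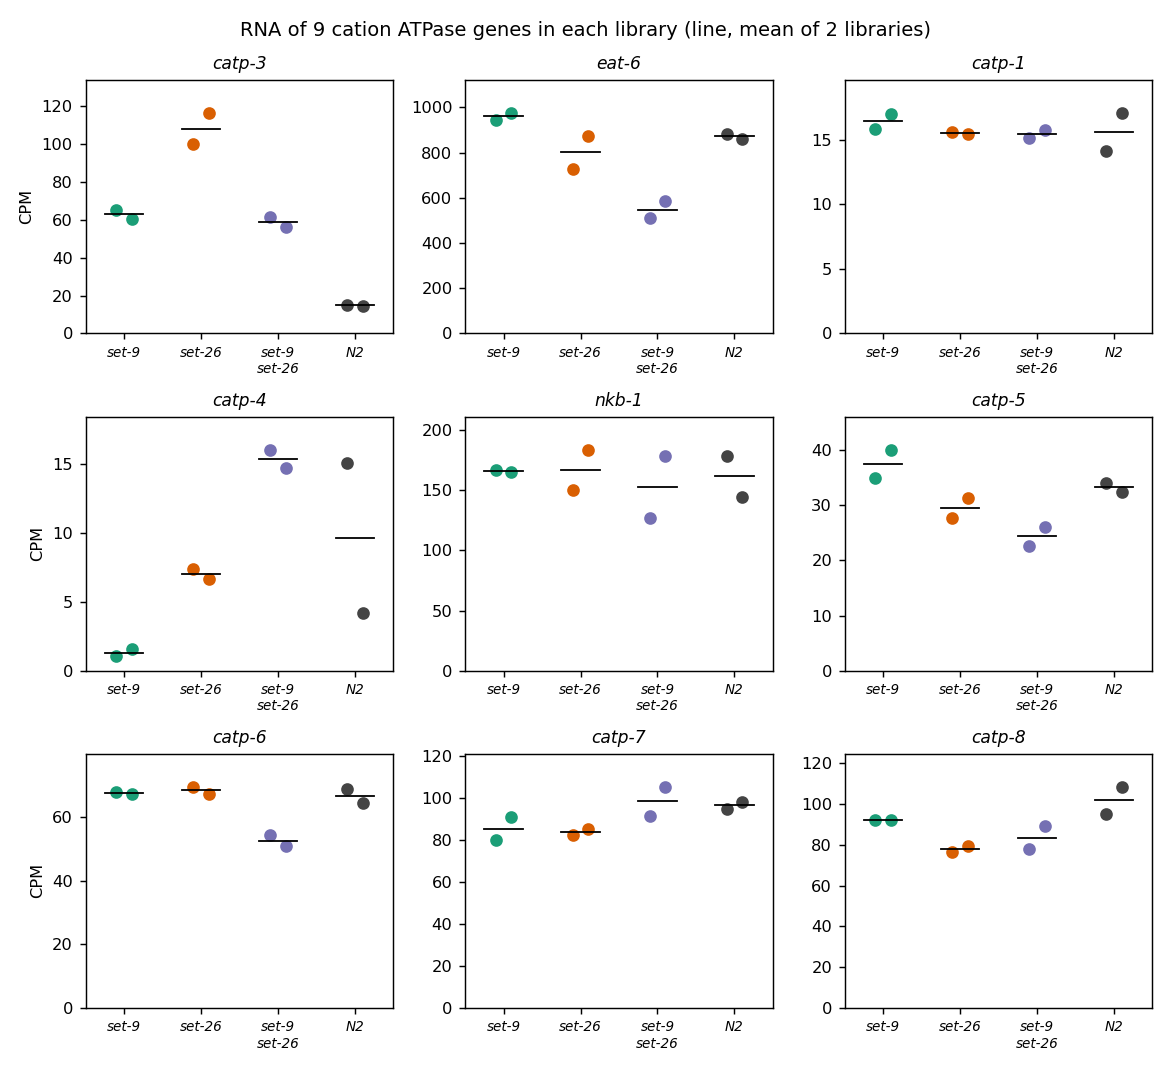
CPM of the 9 tested members in each library, with *set-9*, *set-26*, the double mutant and N2 from left to right; points are libraries and lines are means of 2 libraries, and every axis starts at 0. For *catp-3* the mutant libraries sit between 56.3 and 117 CPM, all above N2, and for *eat-6*, *catp-5* and *catp-6* the double mutant libraries sit below all others.

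As *catp-3* was picked for its rise in *set-9* worms, setting the other members beside it is a description. None of the other tested members rose as far as *catp-3* in a single mutant. The highest log2 fold change against N2 among them was 0.17 for *set-9* worms (*catp-5*, standard error 0.14), where *catp-3* had 2.09. For *set-26* worms it was 0.045 (*nkb-1*, standard error 0.19), where *catp-3* had 2.87. Smaller rises were not excluded. For *catp-5* and *eat-6* both *set-9* libraries lay above both N2 libraries, and for *catp-4*, *catp-7* and *catp-8* both lay below. The share of all genes that separate in this way was not counted, so no weight is put on either direction. In *set-9* against N2, 0 of the other 8 tested members were called by edgeR, where 0.464% of all genes tested were called, and 1 had an unadjusted p under 0.05. In *set-26* against N2, 0 of 8 were called, where 2.41% of all genes were, and again 1 had an unadjusted p under 0.05. With so few genes called in all, a count of 0 among 8 does not set the members apart from other genes. DESeq2's Wald test called 1 and 0 of them in the same order. Over these members the log2 fold changes had a median of 0.03 for *set-9* worms and −0.15 for *set-26* worms, while that of all genes was within 0.01 of 0 in both.

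**Figure D3:**
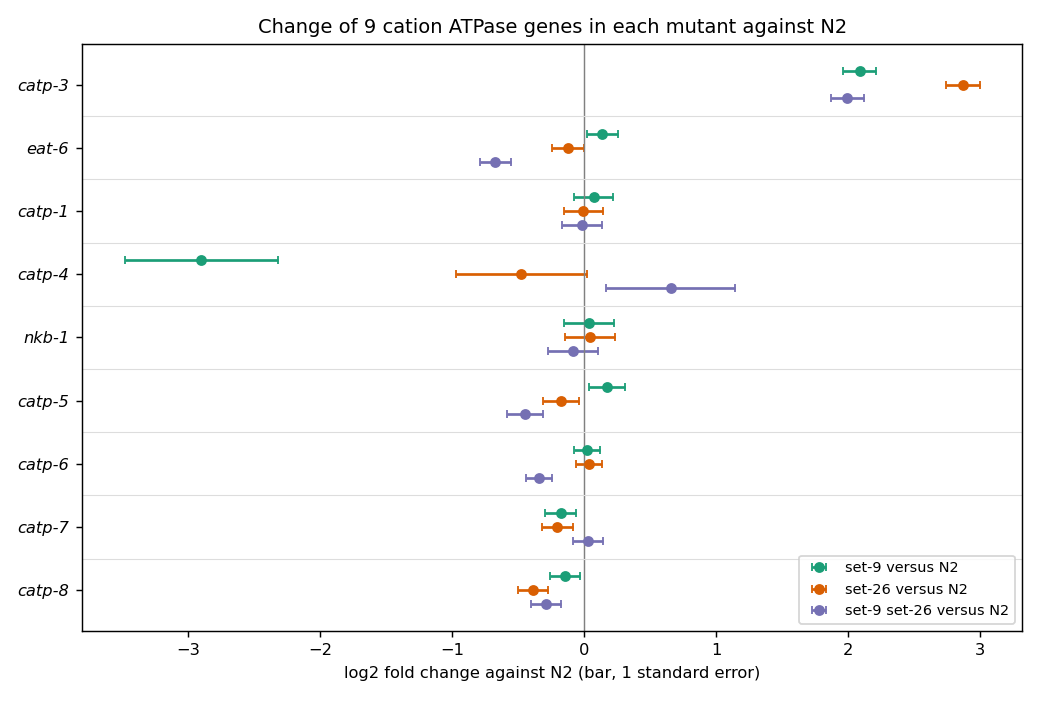
Log2 fold change against N2 of the 9 tested members in *set-9*, *set-26* and the double mutant (top to bottom within each gene), with bars of 1 standard error from the fit of all 8 libraries. The points of *catp-3* lie at 2.09, 2.87 and 1.99, and the point of *catp-4* in *set-9* lies at −2.90 with a standard error of 0.58.

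Among the alpha subunits, *eat-6* carried most of the RNA and fell in the double mutant. It had 944 and 976 CPM in *set-9* libraries, 728 and 875 CPM in *set-26* libraries and 509 and 586 CPM in double mutant libraries, against 882 and 862 CPM in N2 libraries. Both double mutant libraries lay below all 6 others. Against N2 *eat-6* fell by 0.67 on the log2 scale in the double mutant (standard error 0.12, adjusted p = 0.018), and it was the 1 member called of 8, where 10.3% of all genes were called. The call was lost without N2 replicate 1 (adjusted p = 0.057), N2 replicate 2 (0.064), double mutant replicate 1 (0.095) or double mutant replicate 2 (0.068), with log2 fold changes of −0.78 to −0.57. In bulk RNA fewer cells of a type and less RNA per cell cannot be told apart.

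The fall of *eat-6* was also called against each single mutant. Against *set-9* worms *eat-6* fell by 0.81 (standard error 0.12, adjusted p = 0.0047), a call that held under all 16 alternatives. Against *set-26* worms it fell by 0.55 (standard error 0.12, adjusted p = 0.032), a call that was lost without *set-26* replicate 2 (adjusted p = 0.156), double mutant replicate 1 (0.144) or double mutant replicate 2 (0.089). Neither single mutant was called against N2, with log2 fold changes of 0.14 (standard error 0.12) in *set-9* and −0.12 (standard error 0.12) in *set-26*. The interaction, defined as for *catp-3*, was −0.69 on the log2 scale (standard error 0.17, adjusted p = 0.037), a call lost without N2 replicate 1 (adjusted p = 0.081), N2 replicate 2 (0.082), *set-9* replicate 1 (0.068), *set-9* replicate 2 (0.109), *set-26* replicate 2 (0.099), double mutant replicate 1 (0.105) or double mutant replicate 2 (0.066).

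Summed markers of pharyngeal muscle, intestine, body wall muscle and excretory canal were also lowest in the double mutant libraries. The excretory canal sum there was 120 and 98.3 CPM, against 122 CPM in the lowest other library. All 4 pharyngeal muscle markers (*myo-1*, *myo-2*, *myo-5* and *tnc-2*) were called lower in the double mutant than in N2, *set-9* or *set-26*, where 10.3%, 25.9% and 10.4% of all genes were called, and their summed level was 1028 and 1224 CPM in *set-9*, 1094 and 1102 CPM in *set-26* and 559 and 485 CPM in the double mutant, against 996 and 1043 CPM in N2. Of the 6 intestine markers 3 were called lower in the double mutant than in N2, with sums of 3425 and 3609 CPM in *set-9*, 2542 and 3086 CPM in *set-26* and 1746 and 2064 CPM in the double mutant, against 2848 and 3217 CPM in N2. Of the 6 body wall muscle markers, 0 were called by edgeR in that comparison (3 at an unadjusted p under 0.05, and 1 called by DESeq2), and 3 were called lower in the double mutant than in *set-9*. Of the 8 neuron markers, 0 were called against N2 (2 at an unadjusted p under 0.05, and 0 by DESeq2), and 4 were called lower than in *set-9*. The body wall muscle sum was 20433 and 22316 CPM in *set-9*, 18593 and 19716 CPM in *set-26* and 16469 and 16817 CPM in the double mutant, against 18994 and 21071 CPM in N2. The neuron sum was 611 and 544 CPM in *set-9*, 585 and 508 CPM in *set-26* and 596 and 472 CPM in the double mutant, against 612 and 578 CPM in N2. No marker was at 0 in any library. The part of these tissues in the fall of *eat-6* was not tested.

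The makeup of alpha subunit RNA shifted with these values. In summed RPKM of *eat-6* and *catp-1* to *catp-4*, the share of *catp-3* was 6.01% and 5.42% in *set-9* libraries, 11.1% and 10.9% in *set-26* libraries and 9.69% and 7.90% in the double mutant, against 1.55% and 1.505% in N2. The share of *eat-6* was 92.5% and 93.0% in *set-9* worms, 86.3% and 87.1% in *set-26* worms and 85.3% and 87.8% in the double mutant, against 95.4% and 96.3% in N2. The alpha subunit *eat-6* therefore stayed the most abundant in every library, and *catp-3* was a minor part of the pool in each. These shares use the values that picked *catp-3* and are a description.

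The level of *catp-4* differed most between genotypes, and also between the N2 libraries. It had 1.06 and 1.56 CPM in *set-9* libraries, 7.36 and 6.65 CPM in *set-26* libraries and 16.0 and 14.7 CPM in double mutant libraries, against 15.1 and 4.20 CPM in N2 libraries. The N2 libraries differed 3.59-fold from each other, while those of every mutant lay close together. The estimated reads behind these values were 18.6 and 24.1 in *set-9* worms, 147 and 123 in *set-26* worms and 302 and 289 in the double mutant, against 383 and 73.7 in N2.

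The double mutant had 11.8 times the *catp-4* level of *set-9* worms (log2 fold change 3.56, standard error 0.59, adjusted p = 0.0062), and this call held under all 15 alternatives that tested the gene. The interaction was also called, at 4.03 on the log2 scale (standard error 0.77, adjusted p = 0.020). It ranged over 2.82 to 4.66 with 1 library left out, and its adjusted p was 0.051 without *set-9* replicate 2, 0.074 without *set-26* replicate 2, 0.067 without double mutant replicate 1 and 0.065 without double mutant replicate 2. Every comparison of *catp-4* with N2 turned on which N2 library was used. In *set-9* worms it came to −2.90 on the log2 scale (standard error 0.58, adjusted p = 0.086), but −1.69 without N2 replicate 1 and −3.53, with an adjusted p of 0.029, without N2 replicate 2. In the double mutant it was 0.66 (adjusted p = 0.41), but 1.87, with an adjusted p of 0.030, without N2 replicate 1 and 0.03 without N2 replicate 2. In *set-26* it was −0.47 (adjusted p = 0.72), but 0.74 without N2 replicate 1 and −1.11 without N2 replicate 2.

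Sperm genes were also lowest in *set-9* and highest in the double mutant. The summed level of 7 sperm markers was 69.8 and 46.6 CPM in *set-9*, 120 and 99.0 CPM in *set-26* and 191 and 197 CPM in the double mutant, against 127 and 88.8 CPM in N2, with none at 0. Of these, 6 of 7 were called higher in the double mutant than in *set-9*, beside 25.9% of all genes called, 1 of 7 in *set-26* than in *set-9*, beside 0.695%, and 0 of 7 by edgeR in any mutant against N2. In those comparisons 3, 0 and 3 of them had an unadjusted p under 0.05 in *set-9*, *set-26* and the double mutant, and DESeq2 called 2, 0 and 2. The germline list gave 993 and 914 CPM in *set-9*, 1005 and 952 CPM in *set-26* and 859 and 1030 CPM in the double mutant, against 1108 and 919 CPM in N2, and 0 of its 6 genes were called by edgeR or DESeq2 in any comparison, with 0 to 2 of them at an unadjusted p under 0.05. The oocyte list gave 777 and 403 CPM in *set-9*, 547 and 240 CPM in *set-26* and 945 and 1067 CPM in the double mutant, against 947 and 481 CPM in N2, and 1 of its 6 genes was called higher in the double mutant than in *set-26* by edgeR, with 5 at an unadjusted p under 0.05 and 3 called by DESeq2. The oocyte list also had 1 call in the interaction by edgeR and by DESeq2, and 1 in the double mutant against *set-9* by DESeq2 alone. The part of sperm in the values of *catp-4* was not tested.

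**Figure D4:**
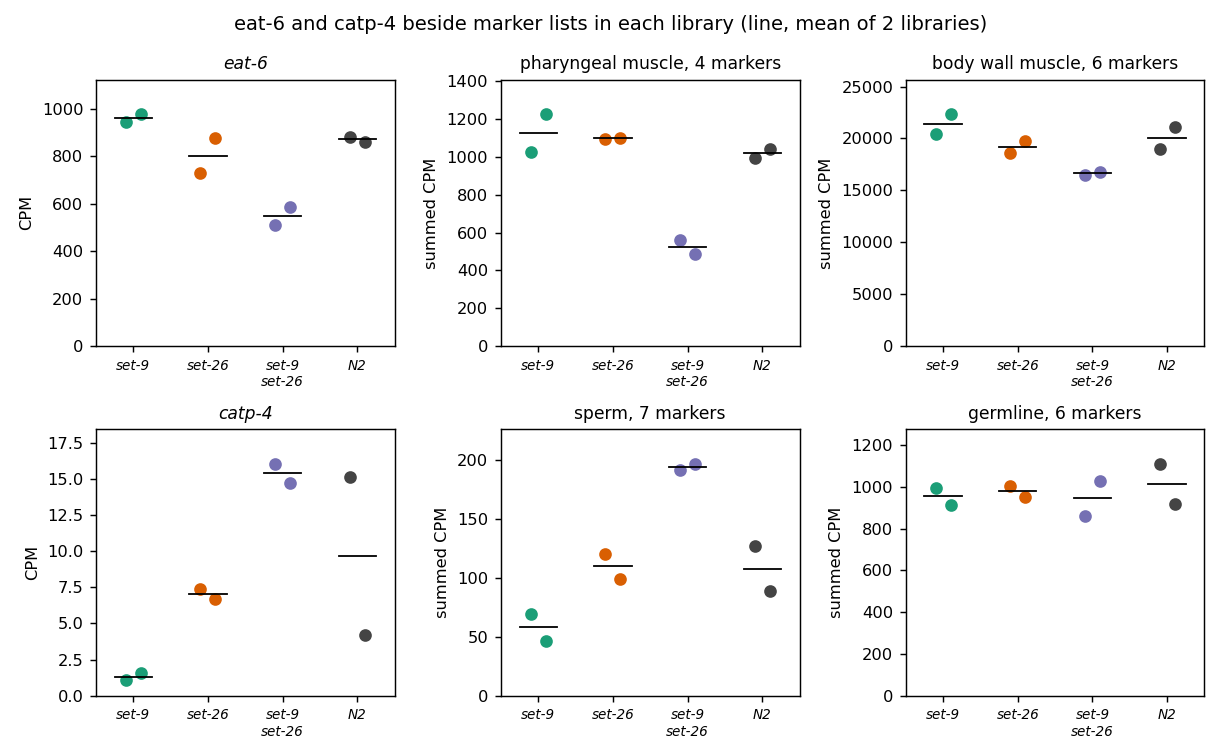
Upper row, *eat-6* (CPM) beside the summed CPM of the pharyngeal and body wall muscle markers; lower row, *catp-4* (CPM) beside the summed CPM of the sperm and germline markers; *set-9*, *set-26*, the double mutant and N2 run from left to right, points are libraries and lines are means. The pharyngeal sum of the double mutant lies at 559 and 485 CPM, below all other libraries, and the sperm sum runs from 46.6 CPM in a *set-9* library to 197 CPM in a double mutant library.

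The alpha subunit *catp-1*, which shapes the response to nicotinic agonists, stood at 14.1 to 17.1 CPM in all 8 libraries. Its log2 fold change stayed between −0.09 and 0.07 in every comparison, with standard errors of 0.15 to 0.21, and it was called in none of them by edgeR or DESeq2.

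The beta subunit *nkb-1* was not called in any comparison by edgeR or DESeq2 either. It had 167 and 165 CPM in *set-9*, 150 and 184 CPM in *set-26* and 127 and 178 CPM in the double mutant, against 179 and 144 CPM in N2, and outside *set-9* the 2 libraries of a genotype differed by more than any pair of genotype means. The RPKM ratio of *eat-6* to *nkb-1* was 3.68 and 3.85 in *set-9* worms, 3.16 and 3.10 in *set-26* worms and 2.60 and 2.14 in the double mutant, against 3.20 and 3.89 in N2. The remaining beta subunit genes changed in opposite directions in the double mutant. The level of *nkb-3* was 770 and 700 CPM in *set-9*, 518 and 554 CPM in *set-26* and 339 and 294 CPM in the double mutant, against 627 and 528 CPM in N2, a fall of 0.87 against N2 (standard error 0.13, adjusted p = 0.0096). The level of *nkb-2* was 2.83 and 2.08 CPM in *set-9*, 6.05 and 5.68 CPM in *set-26* and 10.4 and 13.1 CPM in the double mutant, against 6.34 and 4.54 CPM in N2, a rise of 1.11 (standard error 0.25, adjusted p = 0.035). Both were also called in the double mutant against either single mutant, in the same directions. The order of genotypes for *nkb-3* was that of *eat-6*, with *set-9* highest and the double mutant lowest, and that for *nkb-2* put *set-9* lowest and the double mutant highest, as for *catp-4*.

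Of the P5 genes, *catp-5* and *catp-6* were lower in the double mutant than in *set-9* worms. The gene *catp-5*, which is known for polyamine uptake into the intestine, had 35.0 and 40.1 CPM in *set-9*, 27.8 and 31.4 CPM in *set-26* and 22.7 and 26.1 CPM in the double mutant, against 34.1 and 32.5 CPM in N2. It fell by 0.62 in the double mutant against *set-9* (standard error 0.14, adjusted p = 0.016), a call lost without *set-9* replicate 2 (adjusted p = 0.101) or double mutant replicate 1 (0.088). The gene *catp-6*, whose human relative is ATP13A2, had 68.1 and 67.2 CPM in *set-9*, 69.5 and 67.4 CPM in *set-26* and 54.4 and 50.9 CPM in the double mutant, against 68.9 and 64.6 CPM in N2. It fell by 0.36 against *set-9* (standard error 0.10, adjusted p = 0.034), a call that held under 7 of 16 alternatives, and its adjusted p was 0.121 without *set-9* replicate 1, 0.131 without *set-9* replicate 2, 0.052 without *set-26* replicate 1, 0.074 without double mutant replicate 1 and 0.138 without double mutant replicate 2. Against N2 the double mutant values were −0.45 for *catp-5* (adjusted p = 0.077) and −0.34 for *catp-6* (adjusted p = 0.067), and neither was called. With the replicate number as a block in the edgeR fit both were called (adjusted p = 0.045 and 0.044).

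No change of *catp-7* or *catp-8* was called by edgeR or DESeq2. The level of *catp-7* was 79.6 and 90.8 CPM in *set-9*, 82.3 and 85.2 CPM in *set-26* and 91.5 and 105 CPM in the double mutant, against 94.8 and 97.8 CPM in N2. The level of *catp-8*, the worm's P5A ATPase of the endoplasmic reticulum type, was 92.1 and 92.2 CPM in *set-9*, 76.6 and 79.6 CPM in *set-26* and 77.8 and 89.0 CPM in the double mutant, against 95.3 and 108 CPM in N2. Its largest change against N2 was −0.38 in *set-26* (standard error 0.11, adjusted p = 0.14).

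Counted by comparison, the members were called most often where the double mutant was set against *set-9* worms, with 4 of 8 called beside 25.9% of all genes: *catp-4* was higher, and *eat-6*, *catp-5* and *catp-6* were lower. Against *set-26* worms 2 of 9 were called, *catp-3* and *eat-6*, both lower, beside 10.4% of all genes. The interaction was called for 2 of 8, *catp-4* and *eat-6*, beside 13.9%. In *set-26* against *set-9*, 0 of 8 were called by edgeR beside 0.695% of all genes, with 2 at an unadjusted p under 0.05 and 1 called by DESeq2, and *catp-3*, not among these 8, was 0.78 higher on the log2 scale as a description. The comparisons share libraries, so their counts are not independent.

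Related pumps and sodium-driven exchangers were also read, from lists of other P-type ATPases (calcium and copper pumps and lipid flippases), Na+/Ca2+ exchangers and Na+/H+ exchangers. Of 11 other P-type ATPases tested among 12 listed, 0 were higher and 3 lower in the double mutant than in N2, where 10.3% of all genes were called (867 of 14667 lower). These were calcium pumps: *sca-1*, the pump of the sarcoplasmic reticulum, fell by 0.57 (standard error 0.08, adjusted p = 0.0086) to 1382 and 1430 CPM in the double mutant, against 2062 and 2109 CPM in N2, and the plasma membrane pumps *mca-2* and *mca-3* fell by 0.52 (adjusted p = 0.024) and 0.38 (adjusted p = 0.044). In *set-9* and *set-26* against N2, 0 of the 11 were called by edgeR or DESeq2, with 3 and 1 of them at an unadjusted p under 0.05, and the list's median log2 fold change in the double mutant was −0.10, while that of all genes was 0.01. Of 7 Na+/Ca2+ exchangers tested among 10 listed, 3 were lower in the double mutant than in N2: *ncx-1*, which fell by 0.91 (adjusted p = 0.030), *ncx-2*, which fell by 0.90 (adjusted p = 0.012), and *ncx-8*, which fell by 2.06 (adjusted p = 0.023). The median of the list there was −0.63. Of 7 Na+/H+ exchangers tested among 9 listed, *nhx-3* was the 1 called in that comparison, and it fell by 1.02 (adjusted p = 0.025), with a list median of −0.10.

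Against *set-26* worms, *sca-1* (adjusted p = 0.035), *ncx-2* (0.012), *ncx-8* (0.037) and *nhx-3* (0.016) were also called lower in the double mutant, beside 10.4% of all genes. In the interaction *sca-1*, *mca-2*, *ncx-2* and *nhx-3* were called below 0 and *ncx-7* and *nhx-9* above 0, beside 13.9%. Genes of these lists not called against N2 in the double mutant were called in comparisons with *set-9* worms or in the interaction. The exchanger *ncx-7* had an estimated 0.0047 and 0.0018 reads in *set-9* libraries, against 67.7 and 41.7 reads in N2 libraries, and was called lower in *set-9* (adjusted p = 0.039). With 3 reads in each *set-9* library as a floor for counting error only, its mean level in N2 was at least 14.0-fold higher than in *set-9*. That in *set-26* was at least 8.48-fold and that in the double mutant at least 10.8-fold higher. These differences of *set-26* and of the double mutant from *set-9* were called as well (adjusted p = 0.049 and 0.0048). The exchanger *ncx-4* had an estimated 16.7 and 11.6 reads in *set-9* libraries, against 0 and 0 in N2. In *set-26* libraries *ncx-4* had 0.0030 and 25.3 reads, where *ncx-7* had 43.2 and 17.1. Whether reads were split between *ncx-4* and *ncx-7* was not tested, and the floor does not cover such an error. In the double mutant against *set-9* worms, *nhx-9* rose by 0.73 (adjusted p = 0.033) and *nhx-1* fell by 1.30 (adjusted p = 0.046).

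Among 13151 genes with a mean of at least 1 CPM, those whose log2(CPM + 1) over the 8 libraries was most like that of *catp-3* were Y47G6A.19 (Pearson's r = 0.995), *cls-3* (0.980), *cyp-14A5* (0.974), C55A6.12 (0.966) and *pqm-1* (0.965). These are descriptions over libraries of only 4 genotypes, and the same 5 genes came out with pseudocounts of 0.1 and 10. The gene *cls-3* encodes a microtubule-binding CLASP protein, *cyp-14A5* a cytochrome P450 and *pqm-1* a zinc finger transcription factor of stress and metabolic genes. The change of each was smaller than that of *catp-3*: *cls-3* had 27.9 and 29.8 CPM in *set-9*, 37.3 and 36.2 CPM in *set-26* and 30.5 and 25.9 CPM in the double mutant, against 16.1 and 17.8 CPM in N2. Most like *eat-6* were *pod-2* (r = 0.987), which encodes acetyl-CoA carboxylase, *hrpr-1* (0.986), an RNA-binding protein gene, and *asp-5* (0.985), an aspartyl protease gene. The level of *pod-2* was 747 and 849 CPM in *set-9*, 556 and 713 CPM in *set-26* and 353 and 389 CPM in the double mutant, against 753 and 777 CPM in N2.

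The neighbours of *catp-3* on the chromosome, both chemoreceptor genes on the other strand, were hardly read. The gene *str-144*, which lies 3864 bp before *catp-3*, had 5 and 4 reads in *set-9* worms, 18 and 4 in *set-26* worms and 21 and 17 in the double mutant, against 0 and 1 in N2, and was called higher in the double mutant than in N2 (adjusted p = 0.041). The gene *str-131*, which lies 232 bp beyond the end of *catp-3*, was not tested. It had 4 and 2 reads in *set-9* worms, 2 and 2 in *set-26* worms and 15 and 12 in the double mutant, against 3 and 0 in N2.

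The other lists checked on the tissue were those of the hypodermis and the excretory canal. The sum of 5 hypodermis markers was 397 and 468 CPM in *set-9*, 387 and 428 CPM in *set-26* and 407 and 401 CPM in the double mutant, against 477 and 578 CPM in N2. By edgeR 1 gene was called higher in each single mutant and 1 lower in the double mutant than in N2. Beside these, 0.464%, 2.41% and 10.3% of all genes were called in *set-9*, *set-26* and the double mutant. In the same order 3, 3 and 2 of the 5 had an unadjusted p under 0.05, and DESeq2 called 2, 2 and 2. The sum of 5 excretory canal markers was 141 and 162 CPM in *set-9*, 122 and 135 CPM in *set-26* and 120 and 98.3 CPM in the double mutant, against 130 and 139 CPM in N2. By edgeR 2 of the 5 were called lower in the double mutant than in N2, beside 10.3% of all genes called. There 4 of the 5 had an unadjusted p under 0.05, and DESeq2 called 3.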

How the data were processed

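RNA of synchronized mid to late L4 worms was depleted of ribosomal RNA, and libraries were made with a kit for degraded RNA. The authors removed low quality reads, adaptors (cutadapt) and tRNA and rRNA reads (Bowtie), aligned the rest to WS250 with TopHat2 without new junctions, and counted with Cufflinks. The table deposited by the authors holds estimated counts without any library scaling, with 52.3% of the values above 0 whole. Its 93 landmark entries, at most 0.2775% of a library, were left out.

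Counts were rounded and analysed in R 4.3.3 with edgeR 4.0.16 (TMM, quasi-likelihood test, 1 mean per genotype, all 8 libraries, Benjamini-Hochberg adjustment). Genotype and replicate number came from the labels. The fit's common coefficient of biological variation came to 0.206. Standard errors were derived from the log2 fold changes and their F statistics. The test was tried on simulated counts first. With 2 libraries against 2, no permutation test reaches 0.05. Values at or under 3 reads were read as a floor, for counting error only.

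The alternatives were other scalings (DESeq2's size factors, upper quartile), filters (none, 20 reads in every library, filterByExpr), the Wald test of DESeq2 1.42.0, the compared libraries alone, the replicate number as a block, and each library left out. The members, the lists and the tests were chosen with earlier results of these data known. Named genes were the 10 members, list members called in at least 1 comparison, the genes most like *catp-3* and *eat-6*, the neighbours of *catp-3*, and *set-9*. Sequences and annotation came from WBcel235 and were compared with Biopython 1.88, and plots were made with Python 3.11.15 and matplotlib 3.10.9. The 16 ChIP samples and the *set-26* gene were not analysed here, and 1 member's site sequence is not reported here.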

Additional observations from a re-analysis of the deposited data

Results flagged for a closer look

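The change on loss of *set-9* was called different between worms with and without a working *set-26* for 2 of 8 tested members, *catp-3* not among them. By this test of the difference itself, 13.9% of all genes were called. Both calls were lost with some single libraries left out, with differences of 2.82 to 4.66 for *catp-4* and −0.82 to −0.58 for *eat-6*. The N2 libraries of *catp-4* differed 3.59-fold from each other. For *catp-4* the difference was 4.03 on the log2 scale (standard error 0.77, adjusted p = 0.020 by edgeR), with 16.0 and 14.7 CPM in the double mutant and 7.36 and 6.65 CPM in *set-26*, beside 1.06 and 1.56 CPM in *set-9* and 15.1 and 4.20 CPM in N2. For *eat-6* the difference was −0.69 (standard error 0.17, adjusted p = 0.037), with 509 and 586 CPM in the double mutant and 728 and 875 CPM in *set-26*, beside 944 and 976 CPM in *set-9* and 882 and 862 CPM in N2.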

How the results depend on the processing

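Of the members other than *catp-3*, the number called in *set-9* against N2 was 0, and 1 (*catp-4*) without a filter or with DESeq2's Wald test (0 to 1 with 1 library left out). The counts were 0 in *set-26* against N2 throughout, and 0 in *set-26* against *set-9*, with 1 (*catp-4*) in the same pair of settings (0 to 1). In the double mutant against N2 it was 1, with 3 under the replicate block, which added *catp-5* (adjusted p = 0.045) and *catp-6* (0.044) (0 to 1). Against *set-9* it was 4, with 2 when 20 reads were asked of every library, which removed *catp-4* from the test and left *catp-6* uncalled, and 3, without *catp-6*, with no filter, the compared libraries alone or DESeq2's Wald test (2 to 4). Against *set-26*, *catp-3* included, it was 2 (0 to 3), with 3 under upper quartile scaling or the replicate block (*catp-6* added) and with no filter, the compared libraries alone or either N2 library left out (*catp-4* added). The interaction was called for 2, with 1 under 20 reads in every library (0 to 2). A genotype left with 1 library was assumed to vary like the others. No member turned its direction while called.

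The labels name no batch, day or culture shared by same-numbered libraries. Their deviations from the genotype means had r of 0.068 to 0.351, over 0.1 in 4 of 6 pairs of genotypes, and with 2 libraries each whether the numbers pair them was not settled. The replicate block gave 196 calls over all genes in *set-9*, 721 in *set-26* and 2443 in the double mutant against N2, 308 in *set-26* against *set-9* and 2529 in the double mutant against *set-26*, where the fit without it gave 68, 354, 1516, 102 and 1520. Without a filter these were 743, 986, 2479, 597 and 2575. With the compared libraries alone they were 0, 15, 1259, 0 and 2175, with 1469 and 1847 genes at an unadjusted p under 0.05 in the comparisons with 0, and with DESeq2's Wald test 501, 838, 1912, 454 and 2133. With 20 reads in every library, *set-9* against N2 gave 108. Leaving out 1 library gave 0 to 116, 20 to 281, 134 to 1411, 0 to 59 and 88 to 1773, and 1395 to 3811 and 333 to 1854 against 3800 for the double mutant against *set-9* and 2034 for the interaction. Upper quartile scaling moved the share of higher calls in *set-26* against N2 to 51.3%, against 40.7% with TMM.

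With 18.6 and 24.1 reads in *set-9*, *catp-4* was the tested member most limited by depth.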
